A study of Mus musculus with 6 samples.

Results

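Autophagy and mitophagy genes were examined in the transcriptome of mouse muscle stem cells (MuSCs). The set was defined by name: 35 gene symbols, from the kinases that start an autophagosome to the lysosomal proteins that receive it. These matched 37 entries of the 22706 in the expression table, because Park2 is listed under 3 identifiers. The entries with a mean normalized read count of at least 5 over the 6 libraries were tested, which left 35 of the 37, with each symbol represented once, among 15915 tested genes. Both entries that did not pass belonged to Park2.

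The 6 libraries came from freshly sorted MuSCs of 3 groups with 2 libraries each. Control mice were wild type. mdx mice carry a loss-of-function mutation of the dystrophin gene and served as the model of Duchenne muscular dystrophy. Sirt6mKO/mdx mice carry the mdx mutation as well, together with floxed Sirt6 alleles, deleted in the Pax7 lineage by a constitutively active Cre recombinase driven by the Pax7 promoter (Pax7-ICNCre), so that the comparison of Sirt6mKO/mdx with mdx asks what loss of the SIRT6 deacetylase changes in dystrophic MuSCs. The strain was labelled C57BL/6 in every library. The mdx line named in the methods of the study is C57BL/10ScSn-Dmdmdx/J, and the study states that its mice were kept on a C57BL/6 background, with littermates as controls. Age, sex and the number of animals per library are not in the labels (the study describes its control, mdx and Sirt6mKO/mdx mice as male), so p-values measure the spread between libraries, which may be partly technical.

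Autophagy delivers cytoplasm, protein aggregates and organelles to the lysosome. The ULK1 kinase complex starts the process, the class III phosphatidylinositol 3-kinase complex marks the membrane, a pair of ubiquitin-like conjugation systems attaches the ATG8 proteins (LC3 and GABARAP) to it, and cargo receptors tie the load to ATG8 before fusion with the lysosome. Mitophagy is the same route used for mitochondria, marked either by PINK1 and Parkin or by BNIP3 and NIX. In MuSCs, autophagy is known for its role in maintaining quiescence and in supplying energy during activation.

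The libraries held approximately 4397632 to 9743941 counted reads and 18983 to 20614 genes above 0. All 10 MuSC markers, among them Pax7 and Myf5, were above 0 in every library, and their summed normalized count ranged from 24210 to 32470. Within that list Sdc4, a heparan sulphate proteoglycan of the MuSC surface, was low in mdx and read 7692 and 6224 (control), 1100 and 1049 (mdx) and 2753 and 2822 (Sirt6mKO/mdx), whereas Vcam1 (7031 and 5753) and Cdh15 (2818 and 2220) were higher in both mdx libraries than in the other 4 (Vcam1 2413 to 4302, Cdh15 1497 to 1640). Sirt6 itself overlapped between the libraries labelled Sirt6mKO/mdx (37 and 30 normalized counts), mdx (33 and 40) and control (41 and 32); counts over the whole gene include exons that the deletion leaves in place, so they check the label only in part. In what follows, Sirt6mKO/mdx stands for the libraries so labelled. Xist read 16772 and 12950 in the control libraries and 7 to 34 in the other 4, while Y-linked Ddx3y read 3 and 8 in control and 1024 to 1767 in the others. The values of both libraries labelled control go against the male sex the study gives. In both comparisons with control, sex therefore differed together with genotype and the effects cannot be told apart. The summed count of 16 immediate early and dissociation genes was low in mdx (10169 and 12257) beside control (79346 and 83953) and Sirt6mKO/mdx (70312 and 72761). The 8 proliferation genes summed to 969 and 830 (control), 1324 and 1895 (mdx) and 705 and 1139 (Sirt6mKO/mdx), with Mki67 among them at 39 and 80, 252 and 548, and 99 and 162. Pcna, most of the sum in control, went the other way between control and mdx, at 764 and 490, 378 and 290, and 348 and 478. Each other gene of this list was higher in both mdx libraries than in both control libraries.

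Marker lists of other cells also differed between libraries. The 10 myofibre genes summed to 8310 and 10578 (control), 6366 and 2134 (mdx) and 12996 and 6190 (Sirt6mKO/mdx). The 8 macrophage and leukocyte genes summed to 80 to 132 in control and mdx and to 191 and 200 in Sirt6mKO/mdx. Most of that sum was Cd68 in control, which read 86 and 88, 30 and 26 (mdx) and 107 and 56 (Sirt6mKO/mdx), and Ptprc, the pan-leukocyte gene, was at 0 in both control libraries and 3 to 19 elsewhere. The 6 endothelial genes, mostly Tek, summed to 752 to 905 in control, 403 to 407 in mdx and 610 to 631 in Sirt6mKO/mdx, with Cldn5 at 0 in both control libraries. The 8 fibro-adipogenic genes summed to 31981 and 39032 in mdx against 20887 to 28822 elsewhere, mostly through Col3a1 (30817 and 26928 in mdx). The more specific Pdgfra and Lum differed between the libraries of one group in mdx and in Sirt6mKO/mdx, with 15 and 59 (control), 195 and 18 (mdx) and 142 and 19 (Sirt6mKO/mdx) for Pdgfra and 82 and 82, 315 and 64, and 316 and 102 for Lum. The 6 smooth muscle and pericyte genes, mostly Notch3, summed to 4378 and 4609 in Sirt6mKO/mdx against 7116 to 8896 elsewhere. The 5 erythroid and the 5 Schwann cell genes summed to 7 to 91 and 23 to 76. The part of these lists in the differences was not tested. In bulk RNA, fewer cells of a type and less RNA per cell cannot be told apart.

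As a set, autophagy and mitophagy genes differed between the groups about as often as other genes did. A gene was called when the Benjamini-Hochberg adjusted p of limma, computed over all 15915 tested genes on log2(normalized count + 1), was at most 0.05 and the fold change was at least 2. In mdx compared to control, 4 of 35 genes (11.4%) were called, against 14.2% of all genes, with Wipi1 higher and Ulk1, Map1lc3b and Sqstm1 lower. Of all genes, 6.89% were called higher and 7.34% lower in this comparison. In Sirt6mKO/mdx compared to mdx, 3 of 35 (8.57%) were called, against 8.17% of all genes, and the 3 genes, Ulk1, Gabarapl1 and Sqstm1, were all higher (all genes: 5.62% higher, 2.54% lower). None was called lower by limma, and 11 of the 35 had an unadjusted p under 0.05 in either direction, as did 4004 of all 15915 genes. In Sirt6mKO/mdx compared to control, 3 of 35 (8.57%) were called, against 7.87% of all genes, with Wipi1 and Bnip3 higher and Atg7 lower (all genes: 5.19% higher, 2.68% lower). Regardless of fold change, limma gave an adjusted p of 0.05 or less for 7, 3 and 3 of the 35 genes, against 16.6%, 9.15% and 8.9% of all genes. The shares lie near those of all genes and are not a result about the set. The calls also depend on the variance model and on the minimum mean. With one prior variance for all genes, or with no minimum mean, none of the 35 genes was called by limma in any comparison. Of the 35 genes 4 to 8, and of the 37 entries tested with no minimum mean 5 to 12, then had an unadjusted p under 0.05. Few other genes were called then either: 3.4%, 0% and 0.547% of all genes with one prior variance, and 1.79%, 0.0837% and 0.00881% with no minimum mean.

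The median log2 fold change of the 35 genes was -0.12 in mdx against control, 0.09 in Sirt6mKO/mdx against mdx and -0.01 in Sirt6mKO/mdx against control, beside medians of 0.00, 0.02 and 0.01 over all tested genes. The values of both libraries of one group lay outside those of the other for 18 of 35 genes in the first comparison (57% of all genes), for 22 in the second (56% of all genes) and for 17 in the third (51.6% of all genes). The heat map of the 35 genes by library shows that the called genes belong to different roles, with none in the phosphatidylinositol 3-kinase complex or among the lysosomal members. The 3 comparisons share libraries, since each group enters a pair of them, so that a gene that was low in both mdx libraries takes part in the first and in the second.

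**Figure D1:**
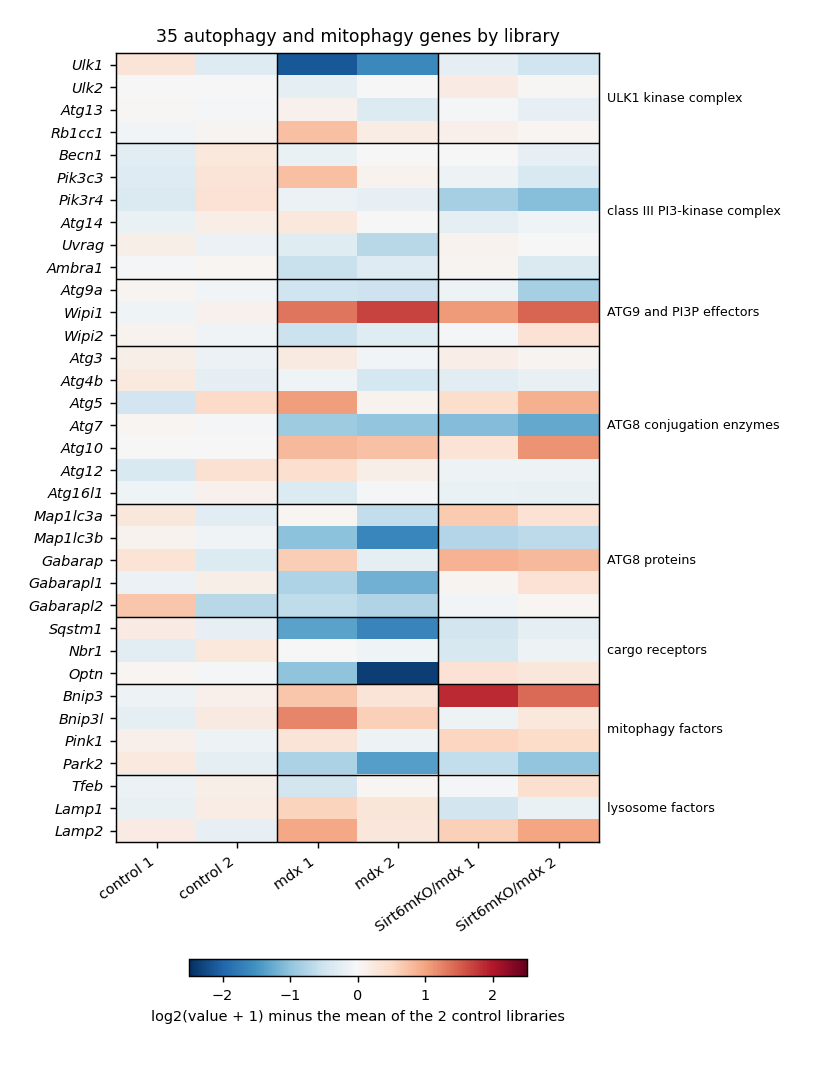
Heat map of the 35 tested autophagy and mitophagy genes (rows, by role) in the 6 libraries (columns); colour gives log2(normalized count + 1) minus the mean of the 2 control libraries, red above and blue below. Ulk1, Map1lc3b, Gabarapl1, Sqstm1 and Optn are among the 11 of 35 genes that are lower in both mdx libraries than in either control library (28.3% of all genes are). Wipi1 is higher in all 4 libraries that carry mdx.

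Promoter windows are shown for the called genes that were low in mdx (Ulk1, Sqstm1, Map1lc3b, Gabarapl1) and for Atg7 and Bnip3, whose windows hold an E-box. The Atg7 window lies inside the gene, at a start downstream of the annotated gene start. RefSeq windows of 300 bases (250 before the transcription start and 50 from it on, GRCm38.p6) matched 27 of the 35 genes. They were searched on both strands for the letters of 4 motifs: the E-box CACGTG, bound by TFEB and other basic helix-loop-helix factors; the AP-1 motif TGANTCA, bound by FOS and JUN; the antioxidant response element TGACNNNGC; and the forkhead motif TGTTTAC, bound by FOXO factors. Sequences run 5′ to 3′ along the gene, and capitals mark a match.
Ulk1, chr5:110810032-110810331, minus strand: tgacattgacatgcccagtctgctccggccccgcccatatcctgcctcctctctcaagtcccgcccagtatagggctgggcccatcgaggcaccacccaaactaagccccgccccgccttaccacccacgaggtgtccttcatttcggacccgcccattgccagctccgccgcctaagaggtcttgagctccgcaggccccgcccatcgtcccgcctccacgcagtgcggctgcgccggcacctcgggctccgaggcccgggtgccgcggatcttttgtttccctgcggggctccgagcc
Sqstm1, chr11:50210771-50211070, minus strand: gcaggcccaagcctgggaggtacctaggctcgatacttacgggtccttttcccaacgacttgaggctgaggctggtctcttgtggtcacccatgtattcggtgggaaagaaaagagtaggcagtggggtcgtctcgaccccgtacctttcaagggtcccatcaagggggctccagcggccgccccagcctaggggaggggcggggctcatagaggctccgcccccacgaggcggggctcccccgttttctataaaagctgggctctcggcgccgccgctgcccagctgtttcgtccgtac
Map1lc3b, chr8:121590188-121590487, plus strand: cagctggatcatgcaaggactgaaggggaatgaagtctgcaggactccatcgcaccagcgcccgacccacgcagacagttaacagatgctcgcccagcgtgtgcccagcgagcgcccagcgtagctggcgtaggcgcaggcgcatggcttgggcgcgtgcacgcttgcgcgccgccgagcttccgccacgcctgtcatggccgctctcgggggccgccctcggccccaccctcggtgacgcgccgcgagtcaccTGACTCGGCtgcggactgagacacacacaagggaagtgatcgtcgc
Gabarapl1, chr6:129532942-129533241, plus strand: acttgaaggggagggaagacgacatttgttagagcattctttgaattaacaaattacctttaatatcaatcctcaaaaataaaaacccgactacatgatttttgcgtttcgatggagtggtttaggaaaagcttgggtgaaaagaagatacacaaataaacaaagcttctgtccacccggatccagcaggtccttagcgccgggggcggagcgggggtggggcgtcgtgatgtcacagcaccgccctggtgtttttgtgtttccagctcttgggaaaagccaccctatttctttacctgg
Atg7, chr6:114670846-114671145, plus strand: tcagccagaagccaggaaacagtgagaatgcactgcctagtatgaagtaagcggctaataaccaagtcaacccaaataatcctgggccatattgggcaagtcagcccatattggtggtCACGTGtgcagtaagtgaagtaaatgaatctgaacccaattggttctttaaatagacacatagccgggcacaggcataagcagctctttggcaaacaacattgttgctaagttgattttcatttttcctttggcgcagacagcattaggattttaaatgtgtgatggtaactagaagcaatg
Bnip3, chr7:138909457-138909756, minus strand: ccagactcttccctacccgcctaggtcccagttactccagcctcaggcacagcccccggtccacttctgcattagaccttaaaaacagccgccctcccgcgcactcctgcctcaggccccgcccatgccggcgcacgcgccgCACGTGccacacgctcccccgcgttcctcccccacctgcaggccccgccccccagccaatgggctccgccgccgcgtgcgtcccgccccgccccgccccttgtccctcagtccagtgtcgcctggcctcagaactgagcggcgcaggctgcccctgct

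The E-box was found in 6 of the 27 genes (Atg14, Atg3, Atg5, Atg7, Bnip3 and Lamp1), and in 8.09% of all 27025 genes with a window. Lamp1 held 4 of them, starting at positions -61, -45, -28 and -15 relative to the transcription start. In Atg7 the match starts at -132 and in Bnip3 at -108. The Atg7 position refers to a start inside the gene: the window begins at chr6:114670846, whereas the annotated gene begins at chr6:114643097. The antioxidant response element was found in 3 of 27 (Atg13, Map1lc3b and Ulk2; 14% of all genes), in Map1lc3b at position 5. AP-1 and forkhead letters were found in 0 of 27, beside 8.97% and 4.05% of all genes. The windows of Ulk1, Sqstm1 and Gabarapl1 held none of the 4 motifs. A match is a description of letters and not a bound site, and a window without one says nothing about the factor.

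Of the 4 genes of the ULK1 kinase complex, Ulk1 was called, lower in mdx than in both other groups. Ulk1 (chr5:110784488-110810097, minus strand, mm10), which phosphorylates the other initiation factors under control of AMPK and mTORC1, had normalized counts of 992 and 638 (control), 183 and 259 (mdx) and 676 and 560 (Sirt6mKO/mdx). Both mdx libraries lay below the other 4. Ulk1 was 3.64-fold lower in mdx than in control (log2 fold change -1.86, SE 0.28, adjusted p = 0.000397, limma) and 2.82-fold higher in Sirt6mKO/mdx than in mdx (log2 fold change 1.49, SE 0.28, adjusted p = 0.00431). The difference between Sirt6mKO/mdx and control did not pass (log2 fold change -0.37, 95% interval -0.97 to 0.23). The call against control was kept without any single library; that against mdx was lost without mdx 1 (adjusted p = 0.0788), Sirt6mKO/mdx 1 (0.125) or Sirt6mKO/mdx 2 (0.0624). The summed immediate early genes, the summed endothelial genes and Sdc4, given above, were likewise low in both mdx libraries, and their part in the difference was not tested.

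The other 3 genes of the ULK1 complex were not called in any comparison. Ulk2, the paralogous kinase, had counts of 364 and 362 (control), 307 and 365 (mdx) and 421 and 370 (Sirt6mKO/mdx), so that control and mdx overlapped. Rb1cc1 (FIP200), the scaffold, had counts of 497 and 547, 878 and 595, and 571 and 538, which put its mean below that of Ulk1 in control (522 against 815) and above it in mdx (736.5 against 221). Atg13, the adaptor, read 243 and 236, 259 and 188, and 235 and 207. The 3 genes had log2 fold changes between -0.38 and 0.47 in all 3 comparisons.

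**Figure D2:**
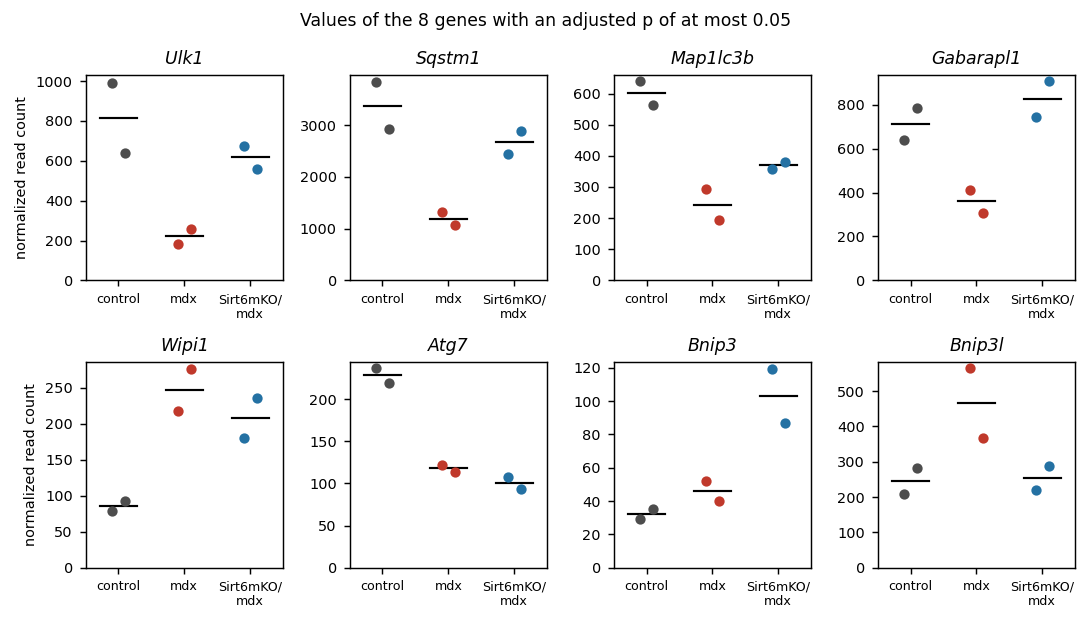
Normalized read counts (linear axes from 0) of the 8 genes with an adjusted p of at most 0.05 in at least 1 comparison; each point is 1 library and the line is the mean of 2. Ulk1, Sqstm1 and Gabarapl1 share a low level in mdx, Wipi1 is low in control, and Bnip3 is highest in the libraries labelled Sirt6mKO/mdx.

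The class III phosphatidylinositol 3-kinase complex showed no called gene in any comparison by limma. Of its 6 genes, 0, 1 and 1 had an unadjusted p under 0.05 in mdx against control, Sirt6mKO/mdx against mdx and Sirt6mKO/mdx against control. Ambra1, which ties the complex to the cytoskeleton and to ULK1, had the highest counts with 480 and 507 (control), 337 and 396 (mdx) and 517 and 383 (Sirt6mKO/mdx). Atg14, the subunit that directs the complex to autophagosomes, had the lowest counts with 83 and 106, 113 and 94, and 80 and 87. Per kilobase of exonic length it read 21.7, above Pik3r4 and Uvrag (19.1 each). Becn1, the Beclin 1 core subunit, overlapped between all groups, with counts from 208 to 299; 43.9% of its exonic length also lies in exons of Cntd1 on the other strand, and the strand setting of the read counting is not given in the sources used here. Pik3r4 (VPS15), the regulatory kinase subunit, read 177 and 292 in control and 128 and 108 in Sirt6mKO/mdx, with no overlap and a log2 fold change of -0.95 (adjusted p = 0.0697, limma), and it passed without control 1. Pik3c3 (VPS34), the lipid kinase, and Uvrag, the subunit of the endosomal form, ranged over 127 to 280 and 116 to 208.

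Of the proteins that act on the growing membrane, Wipi1 differed. Wipi1 (chr11:109573331-109611967, minus strand), which binds phosphatidylinositol 3-phosphate on the phagophore, had counts of 79 and 92 (control), 217 and 276 (mdx) and 180 and 235 (Sirt6mKO/mdx). Both control libraries lay below the other 4, and mdx and Sirt6mKO/mdx overlapped. Wipi1 was 2.85-fold higher in mdx than in control (log2 fold change 1.51, SE 0.30, adjusted p = 0.00312, limma) and 2.4-fold higher in Sirt6mKO/mdx than in control (log2 fold change 1.26, SE 0.30, adjusted p = 0.017). The first call was lost without mdx 2 (adjusted p = 0.0555), and the second without control 1 (0.0555), Sirt6mKO/mdx 1 (0.0766) or Sirt6mKO/mdx 2 (0.208). Wipi2, the paralogue that recruits ATG16L1, had counts of 437 and 386 (control), 284 and 334 (mdx) and 404 and 527 (Sirt6mKO/mdx) and was not called. Atg9a, the lipid scramblase of the vesicles that seed the membrane, read 159 and 143, 106 and 105, and 138 and 84, and was not called either. Exons of Gm29253 on the same strand and of Ankzf1 on the other cover 32.6% of its exonic length.

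Among the 7 genes of ATG8 conjugation, Atg7 differed and the other 6 were not called. Atg7 (chr6:114643097-114860614, plus strand), the E1-like enzyme that activates both ATG12 and the ATG8 proteins, had counts of 237 and 219 (control), 122 and 114 (mdx) and 107 and 93 (Sirt6mKO/mdx). Control lay above both mdx groups in every library. Atg7 was 2.27-fold lower in Sirt6mKO/mdx than in control (log2 fold change -1.18, SE 0.30, adjusted p = 0.0226, limma). In mdx against control the adjusted p was 0.0407, but the log2 fold change of -0.94 was under the 2-fold limit, and Sirt6mKO/mdx and mdx differed by -0.24 (95% interval -0.87 to 0.39). The call was lost without control 1 (adjusted p = 0.0698), control 2 (0.0769), Sirt6mKO/mdx 1 (0.105) or Sirt6mKO/mdx 2 (0.19). Atg16l1, which positions the E3-like complex, had the highest mean of the 7 over the 6 libraries with 260 and 305, 221 and 275, and 252 and 248, though Atg5 had the higher mean in mdx (256 against 248) and in Sirt6mKO/mdx (261.5 against 250). Atg10, the E2-like enzyme for ATG12, had the lowest mean with 47 and 46 (control), 82 and 78 (mdx) and 59 and 102 (Sirt6mKO/mdx), with control below the other groups and a log2 fold change of 0.77 (adjusted p = 0.219) in mdx. Atg3, Atg4b, Atg5 and Atg12, which encode the E2-like enzyme for ATG8, the processing protease, and both parts of the ATG12 conjugate, ranged from 107 to 339. These ranks are of counts not corrected for gene length. Per kilobase of exonic length, Atg5 (97.7) was highest and Atg12 (19.3) lowest of the 7, and Atg16l1 (27) lay below Atg10 (40.2).

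The 5 ATG8 genes, whose products coat the autophagosome, did not move alike in mdx. Map1lc3b (LC3B, chr8:121590361-121598760, plus strand), the usual autophagosome marker, had counts of 639 and 563 (control), 293 and 193 (mdx) and 359 and 380 (Sirt6mKO/mdx). The groups did not overlap, with mdx lowest. It was 2.52-fold lower in mdx than in control (log2 fold change -1.33, SE 0.27, adjusted p = 0.00329, limma), a call that was lost without mdx 2 (adjusted p = 0.0577), while its log2 fold change of 0.63 between Sirt6mKO/mdx and mdx did not pass (adjusted p = 0.149).

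Gabarapl1 (chr6:129533200-129542331, plus strand), a close paralogue of Gabarap, had counts of 639 and 784 (control), 413 and 306 (mdx) and 743 and 907 (Sirt6mKO/mdx). The mdx libraries lay below the other 4, and control and Sirt6mKO/mdx overlapped. Gabarapl1 was 2.31-fold higher in Sirt6mKO/mdx than in mdx (log2 fold change 1.21, SE 0.26, adjusted p = 0.00936, limma). In mdx against control its adjusted p was 0.0159 with a log2 fold change of -0.99, just under the 2-fold limit. The call was lost without mdx 2 (adjusted p = 0.118), Sirt6mKO/mdx 1 (0.0899) or Sirt6mKO/mdx 2 (0.136). Exons of 1700101I11Rik on the other strand cover 28.3% of its exonic length, and the part of the immediate early genes was not tested here either.

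Gabarap had counts of 1008 and 631 (control), 1227 and 687 (mdx) and 1459 and 1409 (Sirt6mKO/mdx). Map1lc3a (LC3A) read 335 and 225, 285 and 178, and 433 and 352, and Gabarapl2 (GATE-16) 116 and 44, 46 and 42, and 68 and 74. In all 3 genes control and mdx overlapped and Sirt6mKO/mdx lay above mdx. In both libraries labelled Sirt6mKO/mdx each of the 5 ATG8 genes was above both mdx libraries, with log2 fold changes of 0.63 to 1.21 and 1 of 5 called, whereas 28.8% of all tested genes were higher without overlap. The summed ATG8 count was 2264 and 1406 in mdx and 3062 and 3122 in Sirt6mKO/mdx. With the libraries scaled to equal totals all 5 log2 fold changes were still above 0, and their median went from 0.68 to 0.06 while that of all genes went from 0.02 to -0.58.

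**Figure D3:**
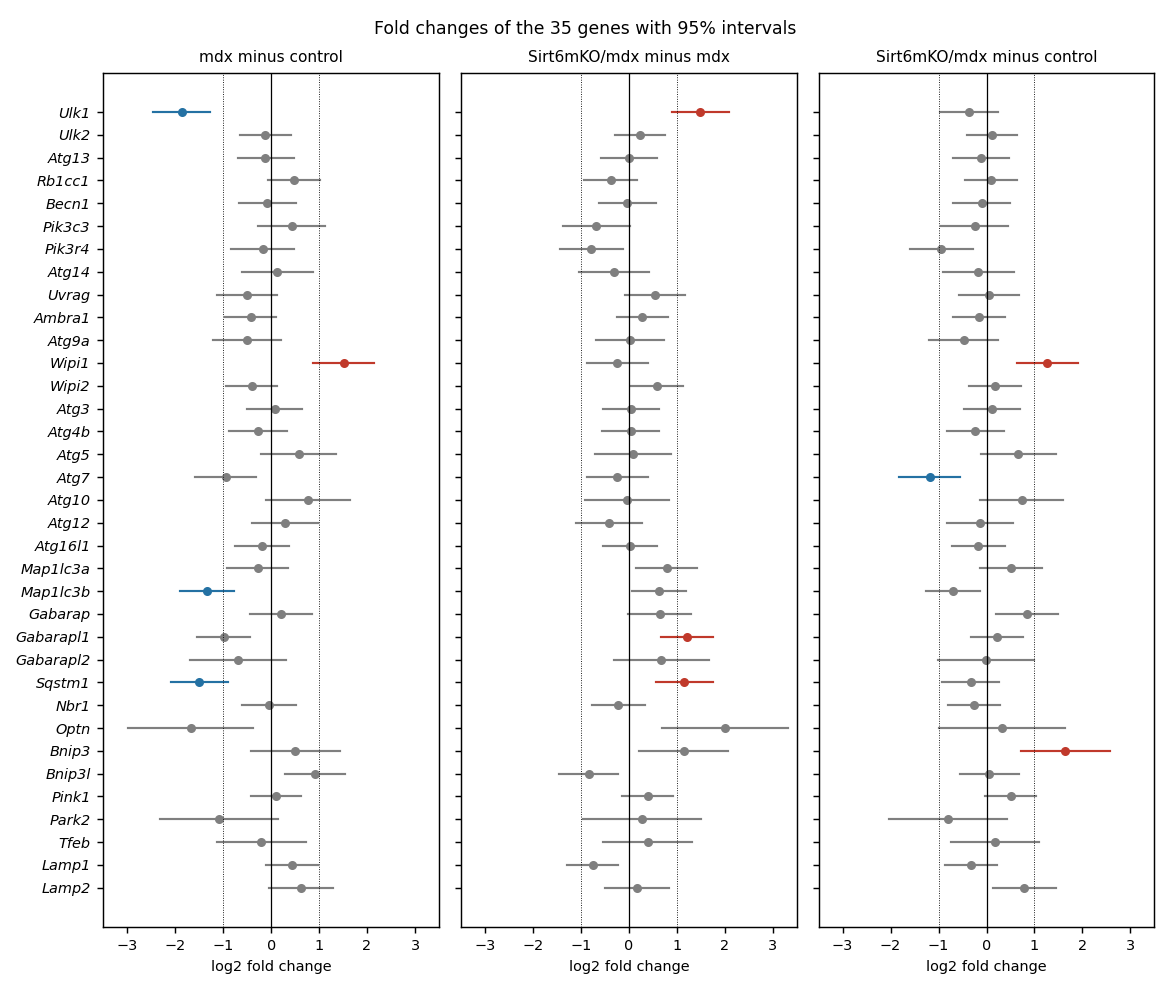
Log2 fold changes (points) with 95% intervals (lines) of the 35 genes in the 3 comparisons; red genes were called higher, blue genes lower, grey genes not called, and dotted lines mark a 2-fold change. Ulk1 lies at -1.86 in mdx against control and at 1.49 in Sirt6mKO/mdx against mdx; most other intervals include 0.

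Of the 3 cargo receptors, Sqstm1 was called, in 2 comparisons. Sqstm1 (p62, chr11:50199366-50210827, minus strand), which binds ubiquitinated cargo and is itself degraded by autophagy, had counts of 3837 and 2916 (control), 1317 and 1064 (mdx) and 2447 and 2882 (Sirt6mKO/mdx). The 3 groups did not overlap, with mdx lowest and control highest. Sqstm1 was 2.82-fold lower in mdx than in control (log2 fold change -1.50, SE 0.28, adjusted p = 0.002, limma) and 2.24-fold higher in Sirt6mKO/mdx than in mdx (log2 fold change 1.16, SE 0.28, adjusted p = 0.0178). The first call was kept without any single library, and the second was lost without mdx 1 (adjusted p = 0.0587), mdx 2 (0.134), Sirt6mKO/mdx 1 (0.143) or Sirt6mKO/mdx 2 (0.171). Exons of Mrnip on the other strand cover 17.3% of its exonic length. As with Ulk1, the part of the immediate early genes was not tested.

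Nbr1, a receptor related to p62 that also takes aggregates, had counts of 864 and 1260 (control), 1054 and 972 (mdx) and 794 and 953 (Sirt6mKO/mdx). It was not called, with log2 fold changes of -0.04, -0.22 and -0.26 in the order of comparisons above. Optn, a receptor for ubiquitinated mitochondria, was the least abundant receptor, with 36 and 34 (control), 17 and 6 (mdx) and 45 and 43 (Sirt6mKO/mdx). The groups did not overlap. Its log2 fold change of 2.0 in Sirt6mKO/mdx against mdx was the largest of the 35 genes in that comparison but came with an SE of 0.62 and an adjusted p of 0.0543 (limma), and that of -1.68 in mdx against control with an adjusted p of 0.0749. Optn was called in Sirt6mKO/mdx against mdx with a pseudocount of 10, with a robust prior variance or with the replicate block.

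Of the mitophagy genes, Bnip3 was called in 1 comparison and the others in none. Bnip3 (chr7:138890836-138909519, minus strand), a hypoxia-inducible receptor in the outer mitochondrial membrane, had counts of 29 and 35 (control), 52 and 40 (mdx) and 119 and 87 (Sirt6mKO/mdx). The 3 groups did not overlap, with Sirt6mKO/mdx highest. Exons of Gm45507 on the other strand cover 22.3% of its exonic length. Bnip3 was 3.13-fold higher in Sirt6mKO/mdx than in control (log2 fold change 1.64, SE 0.43, adjusted p = 0.0288, limma), while its log2 fold change of 1.14 against mdx did not pass (adjusted p = 0.115). The call was lost without any one of the 6 libraries (adjusted p = 0.0525 to 0.228).

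Bnip3l (NIX, chr14:66985239-67008877, minus strand), the paralogous receptor, had counts of 208 and 281 (control), 565 and 366 (mdx) and 221 and 289 (Sirt6mKO/mdx). Both mdx libraries lay above the other 4. In mdx against control its adjusted p was 0.0438, but the log2 fold change of 0.91 was under the 2-fold limit (SE 0.29, limma), and Sirt6mKO/mdx differed from mdx by -0.84 (adjusted p = 0.0829). Of the ubiquitin arm, Pink1, the kinase that marks damaged mitochondria, read 550 and 467, 637 and 464, and 732 and 698 and was not called. The tested entry of Park2 (Parkin, its ubiquitin ligase) read 48 and 34 (control), 23 and 15 (mdx) and 26 and 20 (Sirt6mKO/mdx), with both mdx groups below control and a log2 fold change of -1.08 (adjusted p = 0.224) in mdx. The other entries of Park2 held 0 to 8 and 0 to 9 normalized counts. Summed over the 3 entries, Park2 read 58 and 41, 23 and 17, and 40 and 28.

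Lysosomal members were not called. Lamp2, a membrane protein of the lysosome and of chaperone-mediated autophagy, is X-linked and had counts of 2162 and 1633 (control), 3654 and 2284 (mdx) and 2849 and 3703 (Sirt6mKO/mdx), with control below the other groups and log2 fold changes of 0.62 and 0.79 against control (adjusted p = 0.191 and 0.134, limma). Lamp1, the companion membrane protein, read 785 and 1008, 1310 and 1102, and 644 and 789. Its mdx libraries were the highest, and its log2 fold change between Sirt6mKO/mdx and mdx was -0.75 (adjusted p = 0.0758). Tfeb, the transcription factor for lysosomal and autophagy genes, was low and overlapped between groups, with 50 and 61, 40 and 57, and 54 and 73.

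Between genes, levels were compared per kilobase of exonic length, as the mean over the 6 libraries. Sqstm1 was first with 718 normalized counts per kilobase, followed by Gabarap (580), Lamp1 (351), Gabarapl1 (314), Lamp2 (284), Map1lc3a (255), Pink1 (221) and Nbr1 (143). Tfeb (9.85), Optn (8.04) and Park2 (2.71) were last. The order was not the same in each group: in mdx Gabarap (519) and Lamp1 (451) lay above Sqstm1 (355), and Gabarapl1 read 179. Among the ATG8 genes Gabarap had the highest level per kilobase in 5 of the 6 libraries: it made up 42.6% and 33.7% (control), 56.8% and 51.8% (mdx) and 49.3% and 47.9% (Sirt6mKO/mdx) of the ATG8 level per kilobase. Gabarapl1 made up 24.7% and 38.3%, 17.5% and 21.1%, and 23.0% and 28.2%, and so exceeded Gabarap in control 2. Map1lc3b made up 6.63% and 7.37%, 3.33% and 3.57%, and 2.98% and 3.17%.

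Ratios between related genes within a library do not depend on how libraries are scaled. With 2 libraries per group an exact test cannot give a p below 0.333, so they are described only. Ulk1 exceeded Ulk2 in control (ratio of counts 2.73 and 1.76) and in Sirt6mKO/mdx (1.61 and 1.51), and was below it in mdx (0.596 and 0.71). The ratio of Sqstm1 to Nbr1 was 4.44 and 2.31 (control), 1.25 and 1.09 (mdx) and 3.08 and 3.02 (Sirt6mKO/mdx). Gabarapl1 over Gabarap was 0.634 and 1.24, 0.337 and 0.445, and 0.509 and 0.644. In all 3 pairs the mdx libraries lay apart below the other 4.

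In 3 other pairs control lay apart from the libraries that carry mdx. Map1lc3b over Map1lc3a was 1.91 and 2.5 (control), 1.03 and 1.08 (mdx) and 0.829 and 1.08 (Sirt6mKO/mdx). Map1lc3b over Gabarap was 0.634 and 0.892 (control), 0.239 and 0.281 (mdx) and 0.246 and 0.27 (Sirt6mKO/mdx). Wipi1 over Wipi2 was 0.181 and 0.238, 0.764 and 0.826, and 0.446 and 0.446. In both Map1lc3b pairs mdx and Sirt6mKO/mdx overlapped, whereas for Wipi1 over Wipi2 the 3 groups did not, with Sirt6mKO/mdx between control and mdx. Bnip3 over Bnip3l set Sirt6mKO/mdx apart instead, with 0.538 and 0.301 against 0.139 and 0.125 in control and 0.092 and 0.109 in mdx. Lamp1 over Lamp2 also set that group apart, below the others, with 0.226 and 0.213 against 0.363 and 0.617 (control) and 0.359 and 0.482 (mdx). With 8 pairs compared and no test, these orders are descriptions only.

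**Figure D4:**
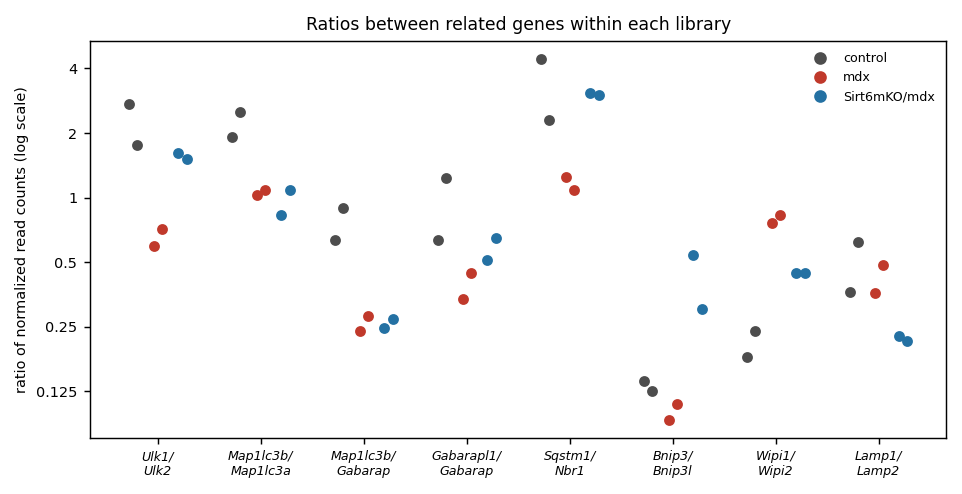
Ratios of normalized read counts between related genes (log axis), 1 point per library. Ulk1/Ulk2 and Sqstm1/Nbr1 are lowest in mdx, Map1lc3b/Gabarap is highest in control, and Bnip3/Bnip3l is highest in the libraries labelled Sirt6mKO/mdx.

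Among 118 other genes of the pathway that were in the table and tested, 12 (10.2%) were called in mdx against control, 9 (7.63%) in Sirt6mKO/mdx against mdx and 7 (5.93%) in Sirt6mKO/mdx against control, again no more often than the 14.2%, 8.17% and 7.87% of all genes. Their median log2 fold changes were 0.09, -0.08 and -0.04. Of 29 genes of AMPK and mTORC1 control, which act on ULK1, 3 were called lower and 0 higher in mdx, and 3 higher and 0 lower in Sirt6mKO/mdx against mdx. Of 17 other core autophagy genes, 1 was higher and 1 lower in mdx, and 3 were higher in Sirt6mKO/mdx against mdx. Of 18 other cargo and mitophagy genes, 3 were higher and 1 lower in mdx. Among 15 vacuolar ATPase subunits 1 was called lower and 0 higher in mdx, where 10 of 15 log2 fold changes were above 0 (median 0.39), and 1 was called in each direction in Sirt6mKO/mdx against mdx. Of 13 genes of autophagosome fusion, 0 were called in mdx against control (1 with an unadjusted p under 0.05, limma), 0 in Sirt6mKO/mdx against mdx (4 with such a p) and 1, higher, in Sirt6mKO/mdx against control. Of 26 lysosomal genes, 0 were called in Sirt6mKO/mdx against mdx (6 with such a p) and 1, lower, in Sirt6mKO/mdx against control. The single genes of these counts were named after their values were seen. Atp6v0e and Atp6v1a, subunits of the proton pump, were 2.09-fold higher (adjusted p = 0.0264, limma) and 2.14-fold lower (adjusted p = 0.0229) in Sirt6mKO/mdx than in mdx. Against control, Vamp8, a SNARE of autophagosome fusion, had a log2 fold change of 1.24 (adjusted p = 0.0302) in Sirt6mKO/mdx, and Gaa, the lysosomal alpha-glucosidase, one of -1.22 (adjusted p = 0.0102).

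Of the other pathway genes, Prkab2 and Sesn2 had the largest fold changes in mdx. Prkab2, the AMPK beta-2 subunit, had counts of 1612 and 1359 (control), 200 and 140 (mdx) and 323 and 402 (Sirt6mKO/mdx), without overlap between any groups. Its log2 fold change was -3.14 in mdx against control (SE 0.26, adjusted p = 2.03e-06, limma), 1.10 in Sirt6mKO/mdx against mdx (adjusted p = 0.018) and -2.04 against control (adjusted p = 0.000217). Sesn2, a stress-induced inhibitor of mTORC1, read 133 and 90, 14 and 16, and 59 and 73, again with mdx lowest, and its log2 fold changes were -2.79 (SE 0.45, adjusted p = 0.000713) in mdx and 2.06 (adjusted p = 0.0113) in Sirt6mKO/mdx against mdx. Prkaa2, a catalytic AMPK subunit, read 106 and 125, 37 and 31, and 63 and 54 and fell in mdx (log2 fold change -1.74, adjusted p = 0.00861).

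Vmp1, which shapes autophagosome contacts with the endoplasmic reticulum, had counts of 382 and 477 (control), 710 and 435 (mdx) and 3481 and 2435 (Sirt6mKO/mdx). Both libraries labelled Sirt6mKO/mdx lay far above the other 4, and the log2 fold changes were 2.39 against mdx (SE 0.29, adjusted p = 0.000117, limma) and 2.77 against control (adjusted p = 3.65e-05). Exons of Mir21a on the same strand overlap 2.38% of its exonic length. Atg101 (9430023L20Rik in the table), a subunit of the ULK1 complex, read 113 and 100, 50 and 45, and 115 and 147. Like Ulk1 it was low in both mdx libraries, and it was called lower in mdx (log2 fold change -1.15, adjusted p = 0.0369) and higher in Sirt6mKO/mdx against mdx (1.44, adjusted p = 0.0208).

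Dnm1l (DRP1), the mitochondrial fission enzyme, was instead high in mdx, with 219 and 248 (control), 578 and 560 (mdx) and 158 and 233 (Sirt6mKO/mdx). Control and Sirt6mKO/mdx overlapped, and the log2 fold changes were 1.28 in mdx against control (adjusted p = 0.00462, limma) and -1.56 in Sirt6mKO/mdx against mdx (adjusted p = 0.00238). Fundc1, an X-linked mitophagy receptor, read 160 and 101, 296 and 317, and 384 and 419. The 3 groups did not overlap, and Fundc1 was called higher against control both in mdx (log2 fold change 1.26, adjusted p = 0.00703) and in Sirt6mKO/mdx (1.65, adjusted p = 0.002). Epg5, an autophagosome tether, had counts of 329 and 440 (control), 1228 and 805 (mdx) and 760 and 691 (Sirt6mKO/mdx), with control below the other groups, and rose in mdx (log2 fold change 1.38, adjusted p = 0.0028). Atp6v0c, a proton channel subunit with processed copies in the genome, read 163 and 114, 25 and 52, and 60 and 102, with mdx lowest, and fell in mdx (log2 fold change -1.89, adjusted p = 0.00965).

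**Figure D5:**
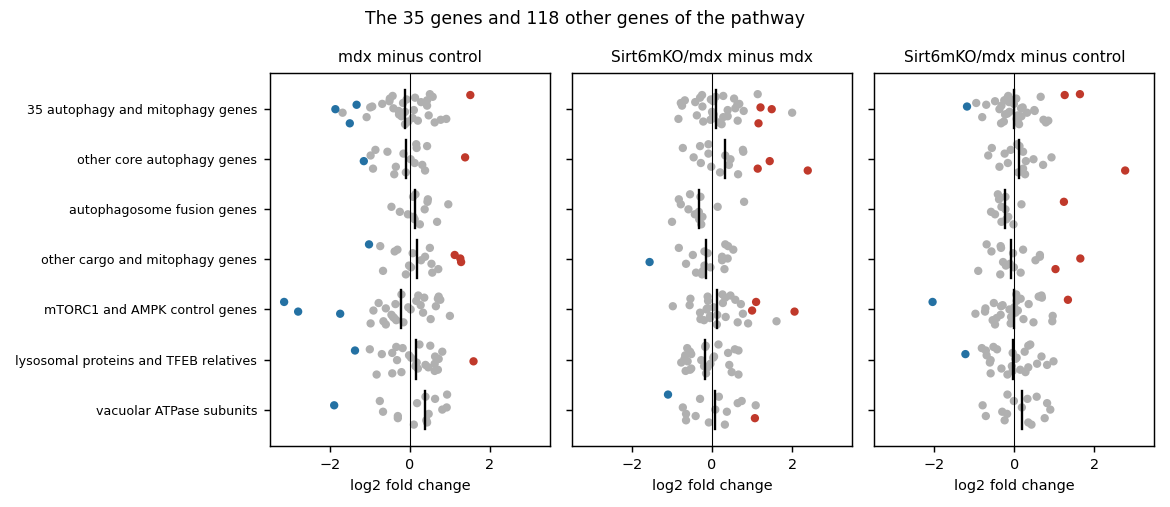
Log2 fold changes of the 35 genes (top row) and of 118 other genes of the pathway by list, in the 3 comparisons; each point is 1 gene, red called higher, blue called lower, grey not called, and the bar is the median. Prkab2 (-3.14) and Sesn2 (-2.79) are the lowest points in mdx against control, and Vmp1 is the highest in both other comparisons.

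Scaling matters for the comparisons with the libraries labelled Sirt6mKO/mdx, in which the 10 most abundant genes took 32.6% and 30.0% of all counts (11.7% to 22.9% in the other libraries). When libraries were scaled to equal totals, the log2 fold changes of all tested genes had a median of -0.58 in Sirt6mKO/mdx against mdx, and 14% of calls over all genes were higher compared to 68.8% with the deposited scaling. Under that scaling 5 of the 35 genes were called in this comparison, all lower (Lamp1, Bnip3l, Rb1cc1, Pik3c3 and Pik3r4). This share is below the 21.4% of all genes called and is not a result about the set. Ulk1, Gabarapl1 and Sqstm1 still had log2 fold changes of 0.87, 0.58 and 0.54, all above the median of all genes, but were not called. In mdx against control the scaling gave all genes a median of 0.03 and the same 4 of the 35 genes were called. In Sirt6mKO/mdx against control, Wipi1 and Bnip3 had log2 fold changes of 0.66 and 1.05 and were not called, and Map1lc3b, Atg7, Atg9a and Pik3r4 were called lower.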

How the data were processed

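RNA of FACS-sorted MuSCs was depleted of ribosomal RNA and sequenced on Ion Torrent by the authors, aligned with STAR (2.4.2a in the submitters' processing notes) to mm10 and counted per gene with featureCounts 1.4.5-p1. Strand setting and aligner parameters are not given in the sources used here. The deposited table holds, for 22706 genes, counts that the authors divided by a size factor per library (DESeq2) and rounded to whole numbers, so they were treated as a normalized score and not as raw counts; no count model was fitted. Size factors were recovered from the steps between values (0.5372 to 1.5268) and give the approximate depths; 3 reads correspond to 1.96 to 5.58 normalized counts, which limits the precision of low genes such as Optn and Park2. The table also held no column outside the 6 libraries.

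Values were compared as log2(value + 1), a scale that understates changes of low genes, with limma 3.58.1 (R 4.3.3; trended prior variance, all 6 libraries in 1 fit, genes with a mean of at least 5), two-sided, with Benjamini-Hochberg adjustment over 15915 genes. The test was checked on simulated data. Genes with an adjusted p of at most 0.05 and a fold change of at least 2 were called. Values in every library are given for members with an adjusted p of at most 0.05 in at least 1 comparison, for the highest and lowest member of each role and for the ATG8 genes; of other pathway genes, at most 12 called ones by size of fold change (1 of them, and with it the count of lysosomal genes called in mdx against control, is not reported here). The members, pathway genes and lists were chosen with earlier results of these data known. Identifiers were matched to GENCODE M21 (98.5%) for exonic lengths and overlaps. Replicate numbers in the labels did not pair the libraries. In total 18 alternatives were tried: another pseudocount, minimum mean, scaling, variance prior, weighting, sample set, GC content centring, a replicate block and the omission of each library.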

Additional observations from a re-analysis of the deposited data

How the results depend on the processing

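The calls rest on 2 libraries per group, on how the prior variance is set and on the minimum mean. With no minimum mean, and likewise with one prior variance in place of a trend, 0 of the 35 genes were called by limma in any comparison; 9, 12 and 5 of 37 entries with no minimum mean, and 8, 5 and 4 of 35 with one prior variance, had an unadjusted p under 0.05 in mdx against control, Sirt6mKO/mdx against mdx and Sirt6mKO/mdx against control. Of the other pathway genes 2 (0 higher, 2 lower) and 3 (0 higher, 3 lower) were then called in mdx against control and 0 in the other comparisons. Adjusted p-values of the 4 genes called in mdx were then 0.054 to 0.065 and 0.0599 to 0.0818. The cause was not tested.

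With equal totals, 5 of the 35 genes were called in Sirt6mKO/mdx against mdx (0 higher, 5 lower; median -0.53; 21.4% of all genes called, with a median of -0.58) and 4 against control (0 higher, 4 lower; median -0.61; 19.8% of all genes called, median -0.58), and of the other pathway genes 32 (2 higher, 30 lower) and 26 (2 higher, 24 lower). Against control, the log2 fold changes of Gabarapl1 (-0.39) and Bnip3l (-0.54) then changed sign, both above the median of all genes; that of Bnip3l did so too with GC content centring (-0.05), without control 1 (-0.15) and without Sirt6mKO/mdx 2 (-0.13), with a range of -0.15 to 0.28 over the libraries left out. With equal upper quartiles the median in Sirt6mKO/mdx against mdx was -0.01, 5 other pathway genes were called there (3 higher), and 8 were higher in mdx against control. GC content centring gave a median of -0.11 in Sirt6mKO/mdx against control, 3 other pathway genes higher in mdx, and 5 (4 higher, 1 lower) in Sirt6mKO/mdx against mdx, where Sqstm1 fell just under the fold limit (0.99). A fit of only the groups compared called 1 of the 35 genes and 3 other pathway genes higher in Sirt6mKO/mdx against control; Bnip3 was the one lost.

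Leaving out 1 library at a time, where a lone library is assumed to vary like the others, gave these ranges. In mdx against control 2 to 5 of the 35 genes were called (0 to 2 higher, 2 to 4 lower; median -0.13 to -0.08; 5.9% to 14.8% of all genes) and 3 to 19 other pathway genes (0 to 9 higher, 3 to 10 lower). In Sirt6mKO/mdx against mdx 0 to 3 were called (0 to 3 higher; median 0.02 to 0.19; 1.28% to 9.27% of all genes) and 1 to 9 other pathway genes (1 to 7 higher, 0 to 2 lower). In Sirt6mKO/mdx against control 0 to 2 were called (0 to 1 higher, 0 to 1 lower; median -0.03 to 0.06; 1.34% to 8.26% of all genes) and 2 to 9 other pathway genes (1 to 6 higher, 1 to 3 lower). Without either library labelled Sirt6mKO/mdx, 0 of the 35 genes were called in both comparisons of that group (6 or 8, and 6 or 3, with an unadjusted p under 0.05, limma), beside 1.28% or 1.6%, and 2.27% or 1.34%, of all genes.

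The replicate numbers share only a number: deviations of same-numbered libraries correlated at -0.13, 0.12 and 0.01. With the replicate block 4, 4 and 3 of the 35 genes were called; the block added Optn in Sirt6mKO/mdx against mdx and lost no call. Single values under the alternatives were tallied only for the genes with an adjusted p of at most 0.05 in at least 1 comparison. They were counted in every comparison, called or not. Of them, 370 kept direction and side of the threshold, 52 lost a call, 5 gained one and 5 changed sign. A value that was not called at first could not lose a call, so the 370 do not measure how stable the calls were.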
